A study of Mus musculus with 2 samples.

Results

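Annotated splice junctions that carry the flag C 0 were examined in the polyadenylated RNA of the mouse duodenum. The junction list of the series gives every junction a flag A and a flag C, whose meanings no source used here gives. Flag A is read here as marking annotated junctions, as the match to an annotation given further on allows. Rows with A 1 and C 0 numbered 323 of 347142, or 0.0930%, whereas 120554 rows carried A 1 and C 1. The 323 junctions held 64994 of the 32399438 junction reads, which is 0.201%. A junction is the seam that a spliced read crosses, so its start and end are the first and last base of the intron that was removed.

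The study has 1 group with 2 libraries, made from the duodenum of adult C57BL/6J mice aged 8 weeks, with tissue of both sexes combined. The RNA was polyadenylated, depleted of ribosomal RNA and longer than 200 bases, and was read as stranded pairs. Both libraries name the same donor entry of pooled littermates, and nothing says that they come from separate animals, so p-values set the difference between 2 libraries against counting noise only. The list gives each junction's reads in each library as R1 and R2, without saying which biological replicate is which, while the gene tables are numbered as replicate 1 and 2 in the labels. Totals were 16649380 junction reads in R1 and 15750058 in R2.

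Introns are cut out by the spliceosome, which reads short sequences at both intron ends. The major spliceosome removes nearly all introns, and these begin with GT and end with AG. It also accepts a minor variant that begins with GC and ends with AG. A separate minor spliceosome, built with its own small nuclear RNAs, removes a small class of introns with a long conserved start, ATATCCTT or GTATCCTT, and a conserved branch point that holds TTAAC. Introns of that class that begin with AT mostly end with AC.

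The label of these junctions held up against an annotation. A GENCODE M21 intron of exactly the same length lay on the same chromosome and strand for 316 of the 323 junctions (97.8%), against 99.8% of annotated junctions with flag C 1. On the opposite strand the same look-up found 222 (68.7%, against 66.9%), so a length by itself is often found by coincidence. The match was taken further by asking that at least 2 neighbouring annotated junctions lie at the same distances as other introns of the gene. A single intron then remained for 296 junctions (91.6%, against 94.6% with flag C 1), in 280 genes, of which 16 held 2 such junctions each. The stricter rule of a unique length named 58 junctions, and the 56 of these that both rules placed went to the same intron. Coding regions held 261 of the 296 introns, 5′ UTRs 20, 3′ UTRs 3 and transcripts without a coding region 12. The remaining 27 junctions had a median of 4 reads and stayed without a gene.

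The letters at the intron ends set these junctions apart from other annotated junctions. No genome of the junctions' build (mm9) was used, so the ends were read from GENCODE M21 transcripts (GRCm38/mm10) whose exons run across the intron. Both ends could be read for 46 matched introns, and 0 of them were GT-AG. With flag C 1, all 10909 introns with both ends readable were GT-AG. GC-AG accounted for 28 of the 46 and AT-AC for 10, and the other 8 were spread over 7 further combinations. The first 2 bases alone were readable in 85 introns, of which 52 began with GC, 24 with AT, 3 with GT and 6 with other letters. Under the stricter matching rule 14 of 15 readable introns began with letters other than GT. At least 1 end was readable in 119 introns, with a median of 31 reads against 21 for the 177 introns with no readable end, so the readable ones are not a random sample.

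Introns that begin with GC mostly carried on with letters typical of the major class. The 52 held 18754 reads, of which Rack1 alone gave 11740, and the median was 17.5 reads. Among the 45 whose first 6 bases could be read, 18 began GCAAGT, 6 GCAAGG and 4 GCATGT. The ends of 4 are shown, because Rack1 and Lztr1 are the most abundant ones on the plus strand and Rps6kb2 and Vps11 stand for the minus strand (the last pair was chosen after its values were seen). In each pair the 5′ end comes first, the intron's first and last 2 bases are in capitals, and all other letters are exon or inner intron.
Rack1 5′ end: atctcacaacGCaagtagct
Rack1 3′ end: ggttctccttcttAGgggcaccacc
Lztr1 5′ end: aggactcgctGCatcctttt
Lztr1 3′ end: ttaacttttatccAGctacctgttt
Rps6kb2 5′ end: cactggatcgGCaagtccag
Rps6kb2 3′ end: ttctgccttctccAGccgcccttca
Vps11 5′ end: caaactggagGCaaggccac
Vps11 3′ end: tctctcttcttctAGatgctgttta

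Rack1, a scaffold protein of the ribosome (ENSMUSG00000020372), held the junction with the most reads, intron 2 of 7 at chr11:48615337-48615774 on the plus strand (mm9), with 5344 reads in R1 and 6396 in R2. Lztr1, an adaptor of a ubiquitin ligase, had 534 and 757 reads at chr16:17524551-17525331. Its intron starts with GC but continues with ATCCTT, as introns of the minor class do, and holds TTAAC near its 3′ end. ATCCTT at letters 3 to 8 was found in 2 of the 45 introns that began with GC.

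Introns that begin with AT mostly carried the start of the minor class. Of 23 such introns with 8 readable bases, 18 began exactly ATATCCTT. These 18 were 24.0% of the 75 junctions with 8 readable bases. All 20204 such junctions with flag C 1 began with GT, so none of them could hold ATATCCTT. GTATCCTT, the GT form of the same start, was found in 83 of the 20204 (0.411%). It was found in 0 of the 75, of which only 2 began with GT. Whatever the first 2 letters, ATCCTT at letters 3 to 8 was found in 20 of the 75 (26.7%), against those 83 of 20204. TTAAC stood in the last 30 bases of 9 of the 17 introns that ended with AC, and in 2.94% of 17821 introns with flag C 1. The sequences of 5 AT-AC introns, chosen after their values were seen, all show the ATATCCTT start, while TTAAC stands near the 3′ end of Hsbp1 and Spc24 and not in the printed 3′ ends of the other 3. Capitals mark the ATATCCTT start in the first line of each pair and the last 2 bases of the intron in the second.
Hsbp1 5′ end: atcggaaggaATATCCTTtt
Hsbp1 3′ end: ctttaactgtgccACtagatgacat
Hnrnpl 5′ end: ctatggtggaATATCCTTtt
Hnrnpl 3′ end: cttaagtcttctcACgtttgattct
D10Jhu81e 5′ end: gggtgtgaccATATCCTTtc
D10Jhu81e 3′ end: ctaacgtctactcACgaagctcatg
Spc24 5′ end: ctaggctacgATATCCTTtg
Spc24 3′ end: cttaacccagtgcACtcagctcatc
Lsg1 5′ end: cgtatcactaATATCCTTtc
Lsg1 3′ end: ccttgacaagtttACgtttgccaga

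Hsbp1, a small protein that binds heat shock factor, had 323 reads in R1 and 552 in R2 at chr8:121868903-121869512. Hnrnpl, an RNA-binding splicing regulator, had 197 and 289 reads at chr7:29599307-29600117. Spc24, a subunit of the kinetochore complex that holds microtubules, had 61 and 42 reads at chr9:21561839-21562128, and Lsg1, a GTPase of ribosome export, had 35 and 17 at chr16:30567921-30569190. D10Jhu81e had 41 and 99 reads at chr10:77625464-77626141. The 24 introns that begin with AT had a median of 74.5 reads, and 20 of them reached 10 reads. An AC end was read in 20 of 80 introns with a readable 3′ end, among them introns of Arpc5 and Arpc5l, which encode subunits of the actin-nucleating Arp2/3 complex. Arpc5 had 328 reads in R1 and 1324 in R2 at chr1:154613998-154615990, and Arpc5l had 275 and 537 at chr2:38863865-38868634. Their first bases could not be read, so their class was not determined.

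A few introns had neither arrangement, and 4 are shown because they are the most abundant ones with both ends readable. Capitals mark the first and last 2 bases of the intron.
Gpaa1 5′ end: tggactcaagATatcctcca
Gpaa1 3′ end: cttgacttgctctATgctctggagc
Cnbp 5′ end: caggaggatgGTaagtattt
Cnbp 3′ end: ttttccttattgtTGaagcctgcta
Dhodh 5′ end: acccaaggcaAGgcggcttc
Dhodh 3′ end: tgctctctgcaggCAcgattcccat
Fgfr1 5′ end: acaggtaacaGAaagtagat
Fgfr1 3′ end: cactcttccttacAGgtgtcagctg

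Gpaa1, a subunit of the enzyme that attaches GPI anchors, had 1095 reads in R1 and 817 in R2 at chr15:76164048-76164224, so both libraries held this AT-AT junction at a high count. Cnbp, a zinc finger protein that binds nucleic acids, had 63 and 97 reads at chr6:87795318-87795458, with a GT start and a TG end. Dhodh, the mitochondrial enzyme of pyrimidine synthesis, had 26 and 47 reads at chr8:112118677-112118812. A GC-AG intron annotated in another Dhodh transcript lies 3 bases away, and the room around both ends covers that distance. Fgfr1, a receptor of fibroblast growth factors, had 37 and 14 at chr8:26677386-26678659.

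The junctions lay mostly on the minus strand. Of the 323, 246 (76.2%) were on the minus strand and 77 on the plus strand, whereas 49.4% of annotated junctions with flag C 1 lay there. More of them lay on the minus strand on 18 of the 20 chromosomes that held any, and more on the plus strand on chromosomes 13 and X. Chromosomes 2, 7 and 8 held the most, with 38, 31 and 26. Per 1000 annotated junctions with flag C 1, chromosome 8 came first with 4.01. Chromosomes 2, 1 and 7 followed with 3.76, 3.29 and 3.23. The strands differed by intron start: 48 of the 52 introns with GC were on the minus strand, against 13 of the 24 with AT. Plus strand junctions were fewer but had a median of 38 reads, against 15.5 on the minus strand.

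**Figure D1:**
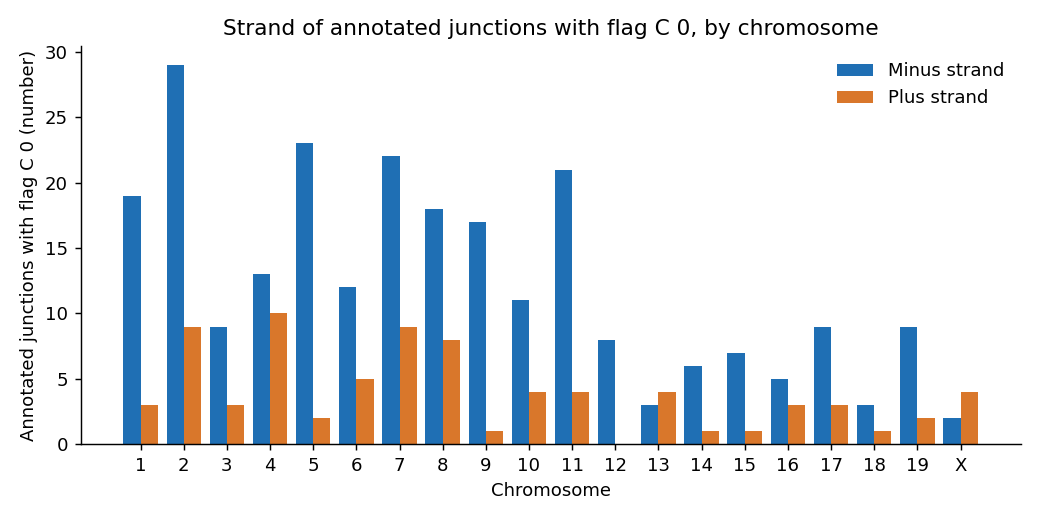
Number of annotated junctions with flag C 0 on each chromosome (x axis), with blue bars for the minus strand and orange bars for the plus strand. The minus strand holds more on every chromosome shown except 13 and X, and 246 of 323 in all.

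A property of the sequence around both ends also went with the flag. At many introns the last exon bases before the intron repeat the last bases of the intron, so both ends could be moved together along the genome with the same spliced sequence. Along the chromosome towards lower positions, the first base to be crossed was readable for 87 of the matched junctions. It differed between the 2 ends in all 87 (22 on the plus strand, 65 on the minus strand), so none could be moved even by 1 base. With flag C 1 it differed in 34.5% of 20417 junctions. That share itself was 18.1% on the plus strand and 50.8% on the minus strand. Towards higher positions 53 of 74 junctions with flag C 0 could be moved, by up to 6 bases, against 64.5% of 20113 with flag C 1. Within a strand these shares were close. They were 45% against 49.2% on the plus strand and 81.5% against 81.1% on the minus strand. The exon bases beside the intron, which were readable in every matched intron, differed most on the side of lower positions. On the plus strand the upstream exon ended with G in 17 of 68 introns (25%), against 81.9% with flag C 1. On the minus strand the downstream exon began with G in 14 of 228 (6.14%), against 49.4%. At the other end, the downstream exon on the plus strand began with G in 21 of 68 (30.9%), against 49.9%. The upstream exon on the minus strand ended with G in 191 of 228 (83.8%), against 81.8%. No source used here says how the authors set the flag or placed the ends. The part of either in these shares, and that of the intron's first letters, was not tested.

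The same look-up was turned around to find where other GC-AG introns are listed. Among annotated introns with readable ends whose flanking introns both had at least 20 reads, 75 were GC-AG. At the annotated position 9 of them were listed, 8 of these as annotated junctions with flag C 0. A row with both ends moved by the same number of bases was found for 34, of which 32 were unannotated with flag C 0, and neither row for 32. Of the 14 with no room to lower positions, 9 were listed at the annotated position. Of the 60 with room, 0 were listed there and 33 had a moved row. The move equalled the whole room to lower positions in 31 of 34 moved introns. For comparison, 4497 of 4980 GT-AG introns were listed at the annotated position and 3 had a moved row. Of 11 AT-AC introns, 7 were listed with flag C 0, and 9 of the 11 had no room.

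Man2c1, a mannosidase, and Hipk1, a nuclear kinase, show what such a moved row looks like, and were picked after their values were seen as the most abundant example on the plus strand and one on the minus strand. Capitals mark the first and last 2 bases of the intron, first as annotated and then as listed.
Man2c1 annotated 5′ end: catcaagcagGCaagggaga
Man2c1 annotated 3′ end: cctccaccAGgctgagaggt
Man2c1 listed 5′ end: catcaagCAggcaagggaga
Man2c1 listed 3′ end: cctccACcaggctgagaggt
Hipk1 annotated 5′ end: ctgactggagGCaagcacaa
Hipk1 annotated 3′ end: gttggtacAGgaatgcccac
Hipk1 listed 5′ end: ctgactggaggCAagcacaa
Hipk1 listed 3′ end: gttggtacaGGaatgcccac

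The Man2c1 row at chr9:56989517-56989609 held 1258 reads and lay 3 bases lower than annotated. The Hipk1 row at chr3:103554308-103554697 held 556 reads and lay 1 base lower. The 34 moved rows together held 5855 reads.

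Most reads on the junctions with flag C 0 came from a few of them. The first 2 held 33.5% and the first 10 held 58.0% of their reads. The median was 22 reads, the same as with flag C 1. At least 10 reads were reached by 204 (63.2%, against 65.1% with flag C 1), at least 100 by 71 and at least 1000 by 15, while 22 had a single read. Both libraries held reads of 228 (70.6%, against 71.6%). R1 alone held reads of 66 of the 323, against 23284 of the 120554 with flag C 1. R2 alone held reads of 29, against 11012, so R1 alone was the more frequent case with either flag. The deposited score, which has no name in the file, had a median of 0.057, against 0.046 with flag C 1. Introns ranged from 51 to 94052 bases with a median of 799, shorter than the median of 1166 with flag C 1. Lengths over 10000 bases were found in 4.95%, against 8.17%, and 58 of the 323 introns were shorter than 200 bases, against 19308 of the 120554. Among junctions with at least 10 reads, the shortest with a gene were in Wdr90 (73 bases, 36 reads in R1 and 17 in R2), Fer1l4 (78 bases, 23 and 0) and Matn4 (78 bases, 33 and 10). An intron of 51 bases and one of 82 bases, both without a matched gene, were also among the 5 shortest. The latter ties in length with an intron of Ints1, a subunit of the Integrator complex, which had 60 and 93 reads and was added after its values were seen. The longest were in Arhgap17 (38488 bases), Cacna1h (35024), Sulf2 (22648), Klhl2 (15465) and Brcc3 (12566).

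The 25 junctions with the most reads ran from 11740 down to 524 reads and lay in genes of many functions. Agpat2, an enzyme of phosphatidic acid synthesis, came after Rack1 (intron 1 of 5, chr2:26452858-26459548) with 1781 reads in R1 and 8245 in R2. Mark2, a kinase of cell polarity, had 1442 and 1513 reads. Myo7b, the myosin of the brush border, had 1344 and 1338, so this junction was close in the 2 libraries. Its flanking introns had 346 and 818 reads. Transporters also stood among the 25. Slc11a2, the iron transporter of the enterocyte's apical membrane, had 947 and 249 reads at intron 8 of 16, and Slc5a4b, of the sodium and glucose transporter family, had 33 and 734 at intron 9 of 14. Slc44a4, a choline transporter-like protein, had 647 and 701. The mitochondrial GTPase Rhot2, whose intron also lies in the overlapping gene model Gm20683, had 1293 and 884 reads, the RNA-processing factor Srrt 919 and 867, and the oxysterol receptor Nr1h2 852 and 564. Ncln of the endoplasmic reticulum had 653 and 654 reads, and none of these 4 genes was called different between the libraries by the test described with the ratios. The autophagy receptor Sqstm1 had 453 and 587, the tail-anchor targeting ATPase Asna1 397 and 470, and the Wnt co-receptor Lrp5 382 and 307. These 3 differed by less than 2-fold after scaling to the totals. The muscle protein gene Ldb3 had 442 and 215, the ubiquitin ligase Ube4b 239 and 381, the acetyltransferase Naa60 440 and 161, and Znhit1 327 and 197. A junction without a matched gene, at chr1:163657146-163657262 on the minus strand, had 212 and 357.

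Each junction with at least 10 reads was compared between R1 and R2 with an exact two-sided binomial test, scaled to the library totals. A junction was called where the Benjamini-Hochberg adjusted p over all junctions was under 0.05 and the scaled ratio at least 2-fold. Calls were made for 74 of the 204 junctions tested (36.3%), while 41.6% of all 93835 junctions tested were called. Higher in R2 were 34 of the 204 (16.7%, background 17.7%) and higher in R1 were 40 (19.6%, background 23.9%). Both shares lie near or under the background and are therefore no result about these junctions. The median log2 ratio of R2 over R1 was -0.01, against -0.14 over all junctions tested. With a minimum of 50 reads, 37 of 108 junctions were called, against 39.1% of all.

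**Figure D2:**
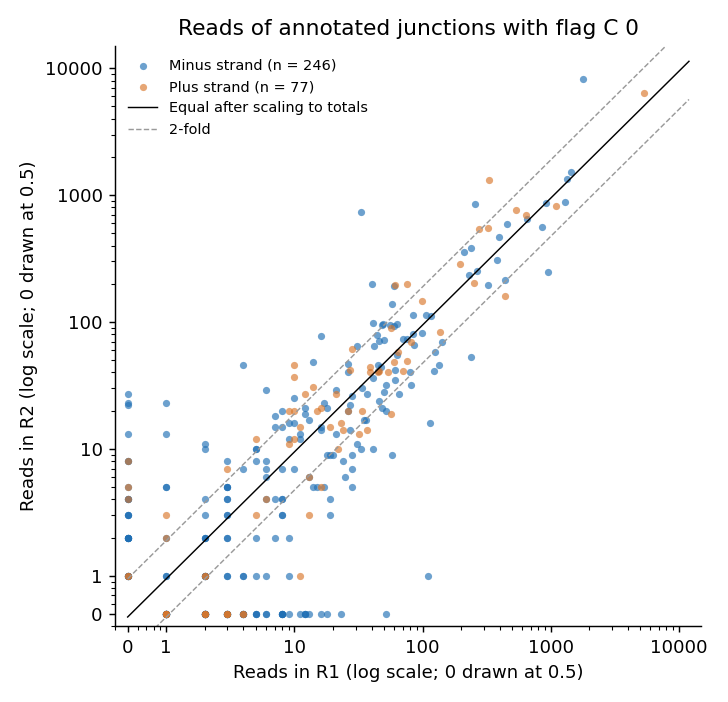
Reads of each of the 323 junctions in R1 (x axis) and R2 (y axis), on log scales with 0 drawn at 0.5, in blue for the minus and orange for the plus strand. The solid line marks equal shares after scaling to the totals and the dashed lines 2-fold. Of the 323, 66 lie at 0 in R2 and 29 at 0 in R1, against 23284 and 11012 of 120554 with flag C 1 (not drawn).

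The largest ratios among the called junctions mostly rest on few reads in 1 of the libraries. Slc5a4b was 23.5-fold higher in R2 (95% exact interval 16.6 to 34.4, adjusted p = 5.57e-180), and its flanking introns had 43.5 reads in R1 and 638.5 in R2. Cubn, the receptor that takes up vitamin B12 bound to intrinsic factor, had 4 reads in R1 and 46 in R2, 12.2-fold higher (4.44 to 46.5). Pdia2, a protein disulfide isomerase of the pancreas, had 52 reads in R1 and 0 in R2, which is 16.4-fold higher in R1 against the 3 reads that a count of 0 allows and has an exact interval that begins at 12.9-fold. Its flanking introns had 46 and 0. The gene's level was 30.03 TPM in replicate 1 and 0.42 in replicate 2. Trim46, a microtubule-associated protein, had 111 and 1 reads, 105-fold higher in R1 with an interval from 18.5 to 4184. Tnip1, an inhibitor of inflammatory signalling, had 1 and 23 reads (24.3-fold, 3.95 to 1002) beside 15 and 25.5 on its flanking introns, Dpep2 1 and 13 (13.7-fold, 2.06 to 584) and Zdhhc13 11 and 1 (10.4-fold, 1.51 to 448). Supv3l1, a mitochondrial RNA helicase, had 9 and 1 (8.51-fold higher in R1, 1.18 to 373). Hnrnpu, a nuclear RNA-binding protein, had 0 and 27, which is 9.51-fold higher in R2 against 3 reads, with an exact interval from 7.22-fold. Its flanking introns had 7 and 6. An unmatched junction of 82 bases on chromosome 7 had 0 and 23, which is 8.10-fold higher in R2 against 3 reads, with an exact interval from 6.08-fold. Junctions and their flanking introns did not always differ alike: where both had at least 10 reads in each library, the ratio had the same sign in 54 of 102 and lay within 2-fold of the flanking ratio in 64. The same counts were not made for junctions with flag C 1, so these are no result about the flag.

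Among the other junctions named for their reads, the called ones had smaller ratios than Slc5a4b. Agpat2 was 4.89-fold higher in R2 (4.65 to 5.15) and Arpc5 4.27-fold (3.78 to 4.83). Arpc5l was 2.06-fold higher in R2 (1.78 to 2.40) and Naa60 2.59-fold higher in R1 (2.15 to 3.12). Slc11a2 was 3.60-fold higher in R1 (3.13 to 4.15, exact binomial test, adjusted p = 2.33e-86). Rack1 differed by 1.27-fold, below the 2-fold limit. The tissue of the 2 libraries was not alike: the 6 exocrine pancreas markers summed to 52895 TPM in replicate 1 and 89.9 in replicate 2, and the 4 stomach markers to 5525 and 23.3, with none of these 10 at 0. At least 1 TPM in both replicates was reached by 4 of the 6 and 3 of the 4. The 6 enterocyte markers were all above 1 TPM and summed to 12089 and 23926 TPM. Apoa1, Apoa4, Fabp2 and Lct were higher in replicate 2, whereas Alpi, the intestinal alkaline phosphatase, had 7153 TPM in replicate 1 and 1568 in replicate 2, and Fabp1 130 and 112. Since R1 and R2 are not assigned to the replicates, the part of tissue make-up in the ratios was not tested.

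Reads on these junctions were set beside those of the adjacent introns of the same transcript that carry flag C 1. Over 278 junctions with such a neighbour the median was 81.5% of the neighbours' mean, against 84.2% over 106725 junctions with flag C 1. By intron start the median was 105% for AT and 54.5% for GC. Where the neighbours averaged at least 20 reads, 21 of 181 junctions lay under 10% (11.6%, against 11.1%) and 27 over 200% (14.9%, against 12.9%). Far above its neighbour was Agpat2, whose 10026 reads stood beside 861 on the adjacent intron. The share was larger in R2 (1565%) than in R1 (533%). Higher shares still, as for Arpc5, Mark2, Arpc5l and Sqstm1, rest on neighbours with 2, 10, 34 and 73 reads. Rack1 lay at 53.8% of the mean of its neighbours, with 70.5% in R1 and 44.9% in R2. In the look-up of GC-AG introns the smaller of its flanking introns had 4970 reads, below the junction's 11740. The share therefore depends on the neighbour taken. Sulf2, an extracellular sulfatase, lay low, with 130 reads beside 845.

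**Figure D3:**
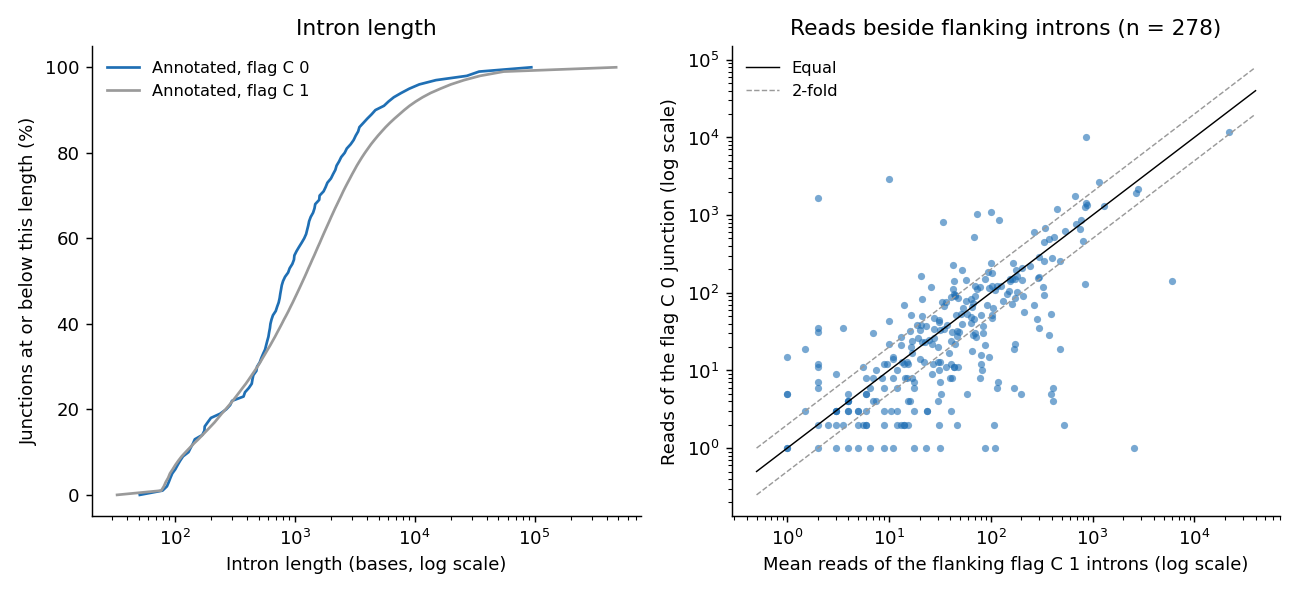
Left, cumulative share of junctions (y axis, %) by intron length (x axis, bases, log scale) for flag C 0 (blue) and flag C 1 (grey). Right, reads of 278 junctions with flag C 0 against the mean reads of their flanking flag C 1 introns, both on log scales, with lines at equal and 2-fold, which shows the median of 81.5% and single junctions far above and below.

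At their splice sites most of these junctions took all or nearly all reads. An end was shared with an annotated flag C 1 junction by 47 (14.6%), and 0 shared both. Of the junctions with flag C 1, 12.6% shared an end with another of that class and 2.10% shared both. All reads at both ends belonged to the junction itself in 218 (67.5%, against 70.3% with flag C 1), and most reads at both ends in 281 (87.0%, against 90.8%). Another row with both ends moved by the same 1 to 10 bases was listed for 40 of the 323 (12.4%), against 51 of the 120554 with flag C 1 (0.0423%). Rack1, for example, had 3 such rows. The deposited contigs, which are stretches of transcription, covered the exon base beside both ends on the same strand for 282 junctions (87.3%, against 84.1%) and on the opposite strand for 1. Junctions in such contigs had a median of 29 reads and the others 3. The middle of the intron lay in a contig of the same strand for 96 (29.7%, against 24.8%).

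Levels of the genes that hold these introns are given as a description, since a junction is listed only where reads cross it. Of 279 matched genes in the gene tables, 242 had at least 1 TPM (a transcript level scaled for length and depth) in both replicates, and the median was 13.5 TPM in replicate 1 and 11.3 in replicate 2. The transcripts that carry the intron summed to a median of 84.5% and 87.8% of the named gene's TPM, over 256 introns. Transcripts of overlapping genes that hold the intron were counted too, as for Rhot2, at 149% and 136%. The list of minor spliceosome proteins holds 14 names, of which Cenatac and Ccdc84 are the same gene. All 13 genes were in the table, 11 had at least 1 TPM in both, and the levels of the 13 summed to 135 TPM in replicate 1 and 189 in replicate 2. Zmat5 had 38.0 and 62.9 TPM, Snrnp48 13.4 and 15.8, and Rnpc3, which binds the minor class's small RNAs, 2.44 and 1.73. The libraries were made from polyadenylated RNA above a length limit, and whether they can hold minor spliceosomal RNAs was not tested. Levels of these RNAs are therefore no result about their presence in the tissue. Of 4 minor spliceosomal RNAs, Rnu11 and Rnu12 were in the table, and both were listed at 0 in both libraries. All 9 genes of splice site recognition in the major spliceosome and all 4 of the Xbp1 splicing list, which acts outside the nucleus, had at least 1 TPM in both. None of the genes on these lists held a junction with flag C 0. Of all 43346 genes in the tables only 279 did, so the 0 is no result about these lists.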

How the data were processed

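Deposited counts of reads across each junction, which the authors made over both libraries with mm9 coordinates, are not normalised and equal R1 plus R2. The deposited score of a junction, the deposited contig signal, and the flags A and C are the authors' own and carry no explanation per the file headers. TPM and expected counts per gene were deposited per library, on mm10 with annotation M4 per the text files beside them. No source used here names the aligner, the quantifier or the junction caller. Gene totals were 44272208 expected counts in replicate 1 and 44710137 in replicate 2.

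Rows with A 1 and C 0 were taken as they are. Introns, genes and letters came from GENCODE M21, without converting coordinates. The members, gene lists and rules were chosen with earlier results of these data known, and the matching by spacing, the letters read from transcripts, the room to move, the look-up of moved rows and the comparison with flanking introns were chosen after seeing the data. Regions and flanking introns are those of 1 transcript that holds the intron, with protein-coding ones preferred and then the highest mean TPM. Other types were taken for some introns, among them the 12 in transcripts without a coding region. Named junctions are the 25 with the most reads, the 5 shortest and 5 longest with at least 10 reads, and the 10 largest ratios among those called, and further names are marked as chosen later. One gene that this rule names is not reported here. Ratios use an exact binomial test in scipy 1.17.1 with Benjamini-Hochberg adjustment in statsmodels 0.14.6, tested on simulated data. A count of 0 was given the 3 reads it allows. Reads without molecular identifiers are not independent molecules, so these intervals and bounds hold counting error alone. Python 3.11.15, numpy 2.4.6, pandas 2.3.3 and matplotlib 3.10.9 were used. Alternatives covered the read minimum, each library alone, scaling, fold, position tolerance, contig coverage and matching. No test was made between flag classes, since junctions are not replicates.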

Additional observations from a re-analysis of the deposited data

How the results depend on the processing

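Of 27 alternatives over 12 results, 19 left the value within its counting interval, within the spread of R1 and R2 or, for calls, within 1.5 times. Some of the 19 could not have moved, so this count does not measure how stable the results are. The share of all reads in R1 or R2 alone was judged by the spread of those same values. The alternatives on room were subsets of 87 junctions that all had no room, and the minimum on contigs removed none. The median of 22 reads was 10 in R1 and 9 in R2 alone, and 52.5 over rows with at least 10 reads. The share with reads in both libraries was 93.6% over rows with at least 10 reads, and 59.1% with at least 3 reads required in each. Without the 2 most abundant junctions the share of all reads was 0.133%, in place of 0.201%. A minimum of 50 reads left 37 calls in place of 74, from 108 junctions tested. On the opposite strand the length match fell to 68.7%. The planned minimum of 10 on contigs removed none of 374846, whose smallest value was 101. Scaling by the median ratio gave 74 calls, 70 of them shared, with 30 higher in R2 and 44 in R1. The minus strand share was 73.0% with at least 10 reads, and 75.5% and 74.7% over rows with reads in R1 and in R2. The alternatives on strand, room, spacing, abundance and flanking reads were added after seeing the data. No paired analysis was possible because the study has 1 group. Letters could be read only where a transcript runs across the intron, which limits those counts. The cause was not tested.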
